A study of Mus musculus with 25 samples.

Results

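The neutrophil secondary granule and S100 genes were followed across 6 RNA-seq libraries of sorted hematopoietic stem cells. The genes were *Camp*, *Ngp*, *Ltf*, *Lcn2*, *S100a8*, *S100a9*, *Chil3*, *Mmp8*, *Lyz2* and *Retnlg*, 10 of the 23116 genes in the deposited table, and all 10 were found there by symbol. They were chosen from their FPKM (fragments scaled by gene length in kilobases and by library total) in the same comparison of genotypes that is described here, so that their differences between genotypes are given as a description and no test was made of them. Libraries came from HSLAM cells (LSK+ CD150+ CD48−, the stem cell gate of Lineage−, Sca-1+, c-Kit+ marrow) of 3 *Znf143 f/f* and 3 *Znf143 −/−* mice, which are C57BL/6 males. The control mice were *Znf143 f/f* x *Rosa26ERT2-Cre−* and the deleted mice *Znf143 f/f* x *Rosa26ERT2-Cre+*, taken as littermates, and mice used for bone marrow were 8 to 12 weeks old. Both genotypes were given tamoxifen at the middle of the doses used, over 10 days, and only the deleted mice carried Cre. The Cre is expressed from the *Rosa26* locus and is not limited to blood cells. The sample labels name the deleted genotype a CTCF knockout, whereas the methods describe a deletion of *Znf143* exon 1. The FPKM of *Zfp143*, the targeted gene under the symbol used in the table, was 3.06, 4.03 and 3.63 in *Znf143 f/f* and 0.145, 0.303 and 0.326 in *Znf143 −/−* libraries.

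Neutrophils fill their granules in sequence. Primary granule proteins such as *Mpo* and *Elane* are made by promyelocytes, secondary granule proteins such as *Ltf*, *Camp*, *Ngp* and *Lcn2* by myelocytes and metamyelocytes under the factor C/EBPε, and gelatinase granule and surface proteins later still. *S100a8* and *S100a9* encode the 2 chains of calprotectin, which makes up much of the protein in neutrophil cytosol and is also made by monocytes. Stem cells of the HSLAM gate stand upstream of this series, and the lineage antibodies used to exclude mature cells include Gr1 and CD11b, which bind granulocytes.

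The genes lie in a few regions of GRCm38. *Camp* (chr9:109847379-109849617), *Ngp* (chr9:110419747-110423012) and *Ltf* (chr9:111019271-111042767) follow each other on chromosome 9, with gaps of 570 and 596 kb. *S100a8* (chr3:90668978-90670035) and *S100a9* (chr3:90692632-90695721) are 22.6 kb apart on chromosome 3. Upstream sequence is shown for 4 genes with separate ranges in the genotypes and for *Ltf*, a neighbour of *Camp* and *Ngp* whose ranges overlapped, because C/EBP factors are known to act on promoters of granule genes. Sequences are from RefSeq (GRCm38.p6), 5′ to 3′ on the strand of the gene, and cover the part of the 250 bases before the RefSeq start that lies outside the GENCODE gene. Capitals mark the C/EBP core TTGCNNAA on either strand.
S100a9, chr3:90695722-90695971, minus strand: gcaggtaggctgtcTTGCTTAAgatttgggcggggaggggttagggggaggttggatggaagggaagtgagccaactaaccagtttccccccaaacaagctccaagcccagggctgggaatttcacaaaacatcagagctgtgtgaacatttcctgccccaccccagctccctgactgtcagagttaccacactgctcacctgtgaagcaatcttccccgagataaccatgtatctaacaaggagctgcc
Ngp, chr9:110419558-110419746, plus strand: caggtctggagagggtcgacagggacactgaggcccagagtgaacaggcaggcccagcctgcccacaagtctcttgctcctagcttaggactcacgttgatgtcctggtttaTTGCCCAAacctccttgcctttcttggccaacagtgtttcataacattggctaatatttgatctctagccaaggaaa
Ltf, chr9:111019042-111019270, plus strand: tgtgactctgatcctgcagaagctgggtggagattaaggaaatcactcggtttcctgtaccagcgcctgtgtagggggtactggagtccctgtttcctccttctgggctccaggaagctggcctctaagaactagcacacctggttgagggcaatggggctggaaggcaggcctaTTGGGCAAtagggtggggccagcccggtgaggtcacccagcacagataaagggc
Chil3, chr3:106167565-106167814, minus strand: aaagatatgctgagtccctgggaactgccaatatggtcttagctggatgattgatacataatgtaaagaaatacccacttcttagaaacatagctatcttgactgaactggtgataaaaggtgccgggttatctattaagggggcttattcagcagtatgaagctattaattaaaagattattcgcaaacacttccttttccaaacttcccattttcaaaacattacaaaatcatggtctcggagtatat
Camp, chr9:109849618-109849706, minus strand: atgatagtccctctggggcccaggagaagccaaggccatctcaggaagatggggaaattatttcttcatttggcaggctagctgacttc
In full windows of 250 bases, TTGCNNAA was found upstream of 6 of the 10 genes (*Lcn2*, *S100a9*, *Mmp8*, *Ngp*, *Ltf* and *Retnlg*) and in 9.56% of all 32851 windows. Of these 6 genes, *Lcn2*, *S100a9* and *Ngp* had separate ranges in the genotypes and *Mmp8*, *Ltf* and *Retnlg* had not. The window of *Lcn2* lies before its RefSeq start but wholly inside its GENCODE gene. No window of the 10 genes held ACTACAA or CCCANNATG, which are parts of the ZNF143 motif, against 2.81% and 4.06% of all windows. GGAAGTG, an ETS motif as bound by PU.1, was found upstream of *S100a8*, *S100a9* and *Chil3* and in 8.55% of windows. TATAAA was found upstream of *S100a8* and in 12.4% of windows, and GATAAG upstream of none of the 10 and in 6.55%. All motifs were searched on both strands, and these matches describe letters in the windows and not sites of binding.

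Each library held 38643255 to 57895793 fragments assigned to genes. The FPKM of the third *Znf143 −/−* library had been divided by the total of the second, 48378188, in place of its own, so that its FPKM as deposited are 1.20 times too high. Libraries of 1 genotype were not equally far apart. For each pair of libraries, genes with at least 20 and fewer than 200 fragments in the pair were compared by chi-square, for which sampling noise alone gives a mean of about 1. The mean was 1.70 between the first and the third *Znf143 f/f* libraries and 1.68 between the second and the third *Znf143 −/−* libraries, and 6.65 to 12.3 in the other 13 pairs. These 2 pairs differed by more than sampling noise and were kept as separate libraries. For genes of the marker lists that passed on FPKM as deposited, it is said whether they also passed with each pair averaged. Averaging leaves 2 values a genotype. The study describes the libraries of a genotype as biological replicates, and the labels do not say whether those of a pair share an animal, a sort or a preparation. Where they do, p-values over 3 libraries a genotype measure in part a technical spread.

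**Figure D1:**
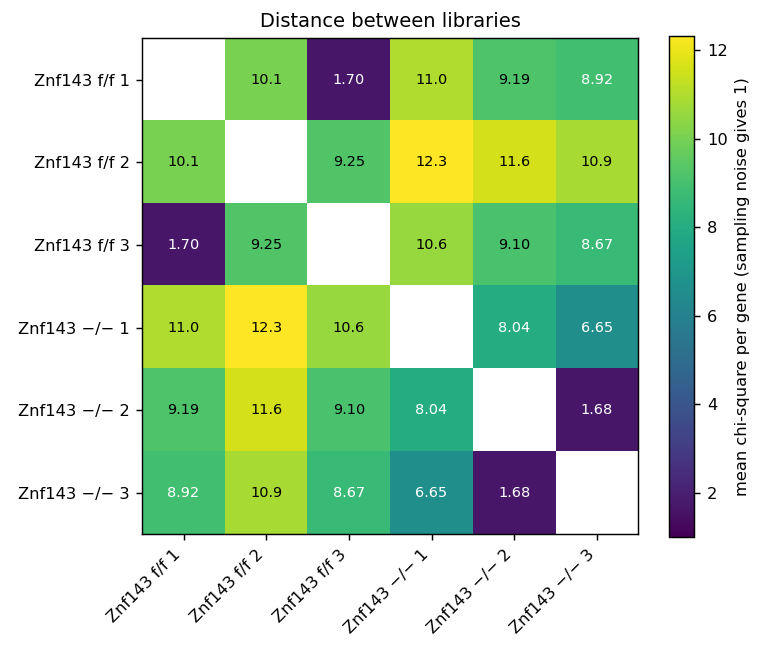
Mean chi-square per gene between each pair of the 6 libraries, as colour and number, over genes with at least 20 and fewer than 200 fragments in the pair. The pairs at 1.70 (*Znf143 f/f* 1 and 3) and 1.68 (*Znf143 −/−* 2 and 3) stand apart from the other 13, which lie between 6.65 and 12.3.

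Of the secondary granule genes, *Camp*, *Ngp* and *Lcn2* were higher in every *Znf143 −/−* library and *Ltf* was not. *Camp*, which encodes the precursor of the antimicrobial peptide CRAMP, had 1.03, 1.44 and 0.861 FPKM in *Znf143 f/f* and 8.20, 5.81 and 6.98 FPKM in *Znf143 −/−* libraries. The lowest *Znf143 −/−* library was thus well above the highest *Znf143 f/f* library, on 29 to 59 fragments in *Znf143 f/f* and 213 to 296 in *Znf143 −/−* libraries. Means were 1.11 ± 0.298 and 7.00 ± 1.20 FPKM (SD, n = 3 each), and the difference of log2(FPKM + 0.1) was 2.57 with an SE of 0.24 from limma.

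*Lcn2*, which encodes the siderophore-binding lipocalin of secondary granules, had 0.188, 0.197 and 0.146 FPKM in *Znf143 f/f* and 1.40, 1.94 and 2.14 FPKM in *Znf143 −/−* libraries. The *Znf143 f/f* libraries were close to each other and the genotypes did not overlap. Means were 0.177 ± 0.027 and 1.83 ± 0.380 FPKM (SD, n = 3 each), and the log2 difference was 2.78 (SE 0.26). *Ngp*, a cystatin-like protein of neutrophil granules, had 1.63, 0.847 and 1.69 FPKM in *Znf143 f/f* and 3.11, 5.77 and 7.09 FPKM in *Znf143 −/−* libraries. The genotypes did not overlap, the second library was lowest in *Znf143 f/f* and the first lowest in *Znf143 −/−*. The log2 difference of *Ngp* was 1.84 (SE 0.35).

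*Ltf*, the iron-binding lactoferrin that defines secondary granules, had 0.954, 0.418 and 0.867 FPKM in *Znf143 f/f* and 0.999, 0.683 and 0.635 FPKM in *Znf143 −/−* libraries. The ranges overlapped, and the first *Znf143 −/−* library alone was above all *Znf143 f/f* libraries. The log2 difference of *Ltf* was 0.09 (SE 0.33), with a 95% interval from -0.67 to 0.84. Beside it, the intervals were 2.03 to 3.10 for *Camp*, 2.18 to 3.38 for *Lcn2* and 1.045 to 2.64 for *Ngp*, and they are given as a description.

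*Chil3*, a chitinase-like lectin of neutrophil and macrophage lineages, differed most. It had 0.048, 0 and 0.069 FPKM in *Znf143 f/f* libraries, on 3, 0 and 5 fragments, and 1.96, 2.76 and 2.58 FPKM in *Znf143 −/−* libraries, on 152, 218 and 204 fragments. In the second *Znf143 f/f* library a count of 0 allows up to 0.034 FPKM. Per fragment on genes, *Chil3* was 64.0 times higher in *Znf143 −/−* over the pooled libraries, with an exact 95% interval from 32.3 to 149 that covers counting error only. The log2 difference was 4.21 (SE 0.30) with a pseudocount of 0.1, and for a gene this low in 1 genotype it depends on the pseudocount.

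The S100 genes were the most abundant after *Lyz2*. *S100a8* had 18.6, 34.8 and 19.6 FPKM in *Znf143 f/f* and 72.7, 59.4 and 69.1 FPKM in *Znf143 −/−* libraries. *S100a9* had 18.5, 32.6 and 18.4 FPKM in *Znf143 f/f* and 51.5, 41.2 and 46.1 FPKM in *Znf143 −/−* libraries. In both, the second *Znf143 f/f* library was the highest of its genotype and still below every *Znf143 −/−* library. Means of *S100a8* were 24.3 ± 9.11 and 67.1 ± 6.87 FPKM and those of *S100a9* 23.2 ± 8.16 and 46.3 ± 5.17 FPKM (SD, n = 3 each). Log2 differences were 1.51 (SE 0.24) for *S100a8* and 1.04 (SE 0.23) for *S100a9*.

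*Lyz2*, the lysozyme of granulocytes, monocytes and macrophages, went the other way. It had 559, 516 and 527 FPKM in *Znf143 f/f* and 400.0, 435 and 501 FPKM in *Znf143 −/−* libraries. The genotypes did not overlap, but the third *Znf143 −/−* library was close to the second *Znf143 f/f* library, and divided by its own total it was at 418 FPKM. The log2 difference was -0.27 (SE 0.14), with an interval from -0.59 to 0.06 as deposited and from -0.62 to -0.15 with median-of-ratios size factors. *Lyz1*, the close paralog with which *Lyz2* can share reads, had 0.041 to 0.659 FPKM over the 6 libraries. *Chil4* and *Retnla*, close copies of *Chil3* and *Retnlg*, were not found by symbol among the genes with FPKM. Values of *Lyz2*, *Chil3* and *Retnlg* are uncertain to the extent that reads were shared.

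The genes of the latest stages were low or uneven. *Mmp8*, the neutrophil collagenase, had 0.021, 0.0076 and 0.037 FPKM in *Znf143 f/f* and 0.026, 0.051 and 0.102 FPKM in *Znf143 −/−* libraries, on 1 to 12 fragments. It was at or near the limit of 3 fragments in *Znf143 f/f* and the first *Znf143 −/−* libraries and had 6 and 12 fragments in the second and the third *Znf143 −/−* libraries, the ranges overlapped, and it did not reach the mean of 0.1 FPKM that a gene needed to enter the fit, so that 9 of the 10 genes had a fitted difference. *Retnlg*, a resistin-like protein of mature neutrophils, had 0.341, 2.89 and 0.370 FPKM in *Znf143 f/f* and 0.346, 1.90 and 1.43 FPKM in *Znf143 −/−* libraries. It was high in the second *Znf143 f/f* and the second and the third *Znf143 −/−* libraries and low in the other 3, whatever the genotype. Its log2 difference was 0.38 with an SE of 0.78.

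**Figure D2:**
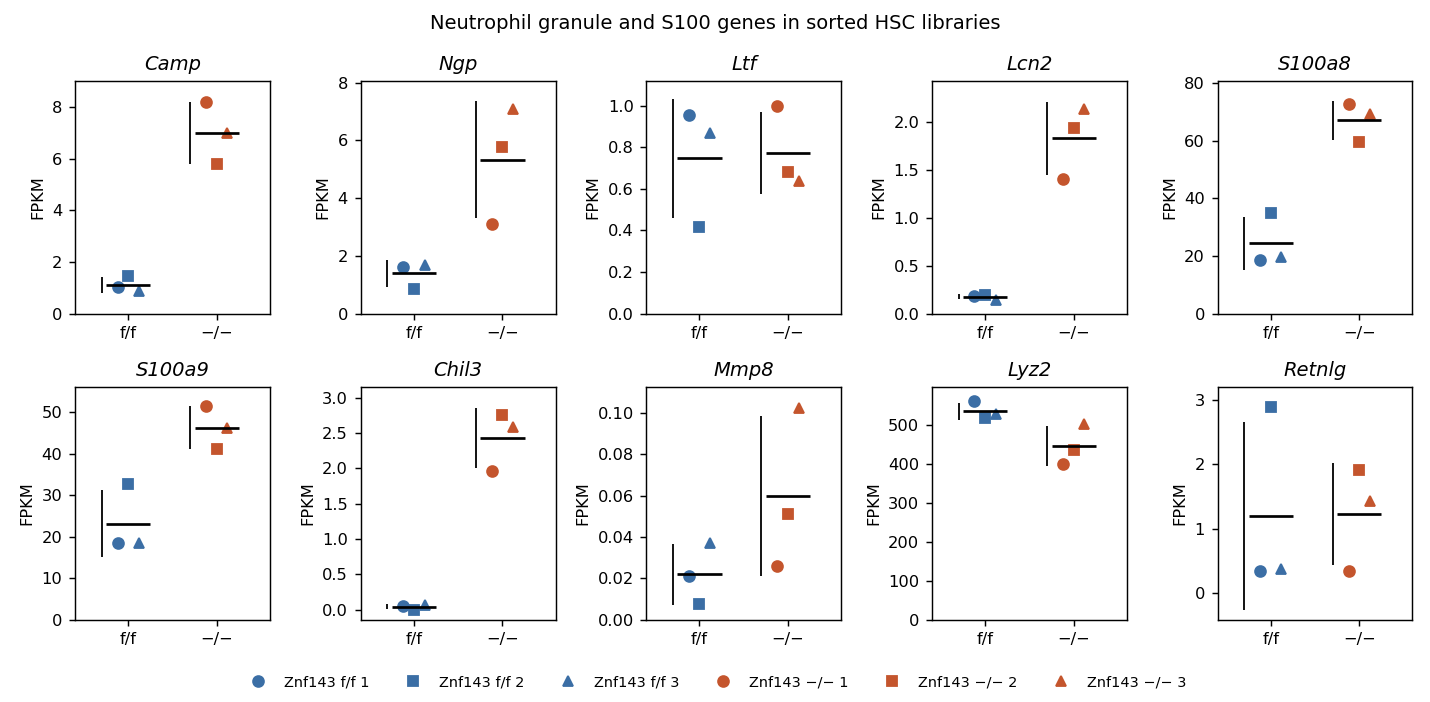
FPKM as deposited of the 10 genes (linear axes) in 3 *Znf143 f/f* (f/f, blue) and 3 *Znf143 −/−* (−/−, orange) libraries. Symbols mark the replicate number, horizontal lines the mean and vertical lines 1 SD to each side. *Camp*, *Ngp*, *Lcn2*, *S100a8*, *S100a9* and *Chil3* are higher in all 3 *Znf143 −/−* libraries, *Lyz2* is lower, and *Ltf*, *Mmp8* and *Retnlg* overlap.

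In all, 6 of the 10 genes were higher in every *Znf143 −/−* than in every *Znf143 f/f* library, 1 was lower and 3 overlapped. Over the 19296 genes tested, 16.7% had *Znf143 −/−* libraries all higher and 8.43% had them all lower. Since the genes were picked on this contrast, nothing is read from that count. The median log2 difference of the 9 fitted genes was 1.51, and that of all genes tested was 0.11 as deposited and 0.01 after median-of-ratios rescaling. With the near-alike libraries averaged, log2 differences were 2.53 for *Camp*, 1.82 for *Ngp*, 2.67 for *Lcn2*, 1.40 for *S100a8*, 0.95 for *S100a9* and 4.25 for *Chil3*. *Retnlg* turned from 0.38 to -0.40, and *Ltf* was at 0.34. In bulk libraries, more cells that express a gene and more RNA of it per cell cannot be told apart.

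**Figure D3:**
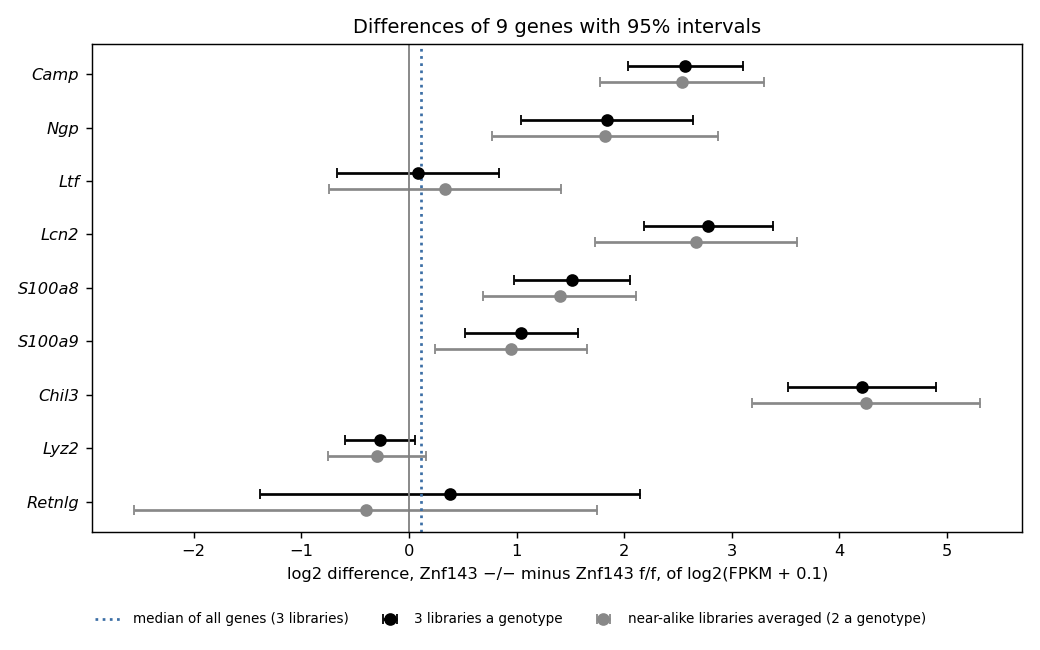
Log2 difference between genotypes of log2(FPKM + 0.1) for the 9 fitted genes, with 95% intervals from limma, over 3 libraries a genotype (black) and with near-alike libraries averaged to 2 a genotype (grey). The dotted line is the median of all genes (0.11). The genes were chosen on this contrast, so the intervals show spread and are no test. *Chil3* has the highest difference (4.21), *Lyz2* the lowest (-0.27), and *Retnlg* the widest interval.

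The genes did not keep 1 ratio to each other. *S100a8* was 1.00, 1.07 and 1.07 times *S100a9* in *Znf143 f/f* and 1.41, 1.44 and 1.499 times *S100a9* in *Znf143 −/−* libraries, a ratio within each library that no scaling factor alters. The ratio was nearly constant within a genotype and did not overlap between them. *Camp* was 1.08, 3.44 and 0.992 times *Ltf* in *Znf143 f/f* and 8.21, 8.50 and 10.99 times *Ltf* in *Znf143 −/−* libraries. *Lcn2* was 0.197, 0.472 and 0.168 times *Ltf* in *Znf143 f/f* and 1.40, 2.84 and 3.36 times *Ltf* in *Znf143 −/−* libraries. The ratio of *Camp* to *Ngp* overlapped, at 0.628, 1.70 and 0.508 in *Znf143 f/f* and 2.64, 1.01 and 0.985 in *Znf143 −/−* libraries.

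**Figure D4:**
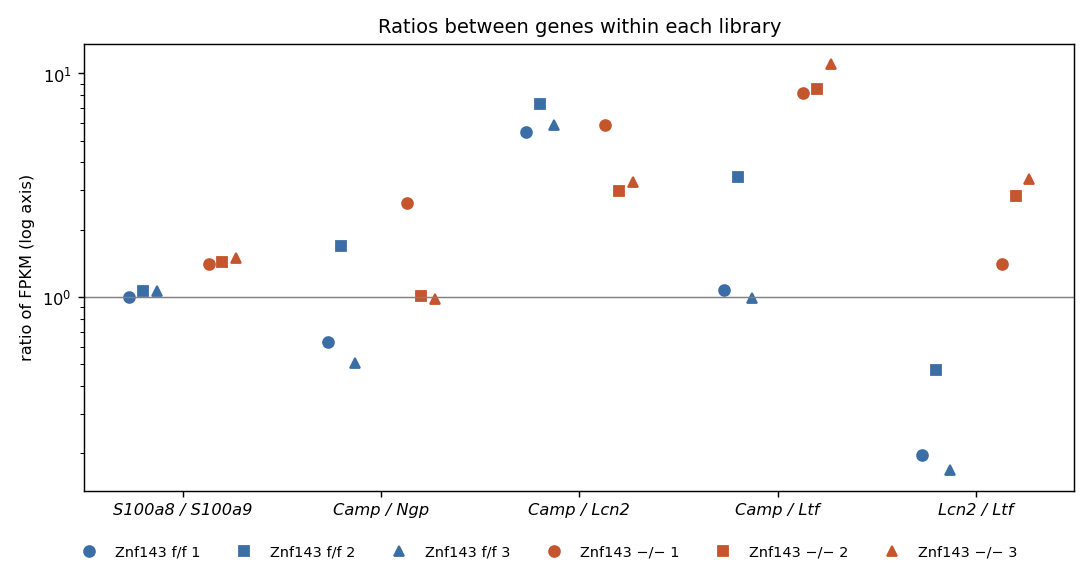
Ratios of FPKM between pairs of genes within each library (log axis), for 3 *Znf143 f/f* (blue) and 3 *Znf143 −/−* (orange) libraries, with the replicate number as symbol and a line at 1. *S100a8* to *S100a9*, *Camp* to *Ltf* and *Lcn2* to *Ltf* are separate between genotypes, *Camp* to *Ngp* and *Camp* to *Lcn2* overlap.

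*Lyz2* dominated the summed level of the 10 genes. It made up 93.1%, 87.6% and 92.6% of the summed FPKM in *Znf143 f/f* and 74.0%, 78.4% and 78.6% in *Znf143 −/−* libraries. The sum of all 10 overlapped between genotypes (569 to 601 against 540.2 to 637 FPKM). The sum without *Lyz2* was 41.3, 73.2 and 42.1 FPKM in *Znf143 f/f* and 140.2, 119 and 136 FPKM in *Znf143 −/−* libraries. In it, *S100a8* and *S100a9* held most of the signal, with 37.1, 67.4 and 38.0 FPKM together in *Znf143 f/f* and 124, 100.6 and 115 FPKM in *Znf143 −/−* libraries.

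Among markers of mature neutrophils, *Ly6g*, *Mmp9* and *Cd177* were at or near 0, while *Itgam* and *Cxcr2* were detected at a low level in every library. *Ly6g*, the Gr1 antigen that defines mouse neutrophils, had 0, 0 and 0.024 FPKM in *Znf143 f/f* and 0.045, 0.219 and 0.219 FPKM in *Znf143 −/−* libraries, on 0, 0 and 1 and on 2, 10 and 10 fragments. *Itgam*, the CD11b antigen, had 0.069, 0.331 and 0.049 FPKM in *Znf143 f/f* and 0.168, 0.146 and 0.143 FPKM in *Znf143 −/−* libraries. The ranges of *Ly6g* did not overlap between genotypes, on at most 10 fragments a library, and it was highest in the 2 near-alike *Znf143 −/−* libraries. *Itgam* overlapped and was highest in the second *Znf143 f/f* library. *Mmp9* reached 0.073 FPKM and *Cd177* 0.201 FPKM at most, both in the first *Znf143 f/f* library. *Cxcr2*, the chemokine receptor of mature neutrophils, was at 0.833, 0.467 and 0.863 FPKM in *Znf143 f/f* and at 1.01, 0.570 and 0.760 FPKM in *Znf143 −/−* libraries, on 77 to 146 fragments and with overlap. *Csf3r*, the G-CSF receptor that stem and progenitor cells also express, was at 12.1 to 16.3 FPKM in *Znf143 f/f* and 12.8 to 23.1 FPKM in *Znf143 −/−* libraries. *Cebpe*, the gene of the secondary granule factor C/EBPε, was at 0.167 to 0.272 FPKM and 0.250 to 0.383 FPKM, with a log2 difference of 0.30 (adjusted p = 0.648 by limma).

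Of 39 other late neutrophil genes in the table, 30 reached the filter. 3 of the 30 rose and none fell at an adjusted p under 0.05 by limma, against 2.74% of all genes tested that rose and 1.58% that fell. In all *Znf143 −/−* libraries, 10 of the 30 were higher and none lower, against 16.7% and 8.43% of all genes tested. The summed FPKM of the 39 overlapped (549 to 616 in *Znf143 f/f* and 531 to 636 in *Znf143 −/−*), with 23 of them under a mean of 1. Their median log2 difference was 0.39. *Wfdc21*, a secreted antimicrobial-type protein, rose from 0.759 ± 0.122 to 4.35 ± 0.786 FPKM (SD, n = 3 each, log2 difference 2.37, limma adjusted p = 0.00085). *Clec4e*, the lectin receptor Mincle, rose from 2.15 ± 0.344 to 6.39 ± 1.24 FPKM (log2 difference 1.52, limma adjusted p = 0.0060). *Trem3* rose from 0.0062 to 0.481 FPKM on 1 fragment in all *Znf143 f/f* libraries (log2 difference 2.43, limma adjusted p = 0.0069). Its *Znf143 f/f* mean was under the filter of 0.1 FPKM. It thus entered the fit through the *Znf143 −/−* libraries alone and could only be called higher, so nothing is read from its call. With the near-alike libraries averaged, only *Wfdc21* of this list passed (limma adjusted p = 0.035), against 0.435% of all genes that passed in either direction. Without the third *Znf143 −/−* library the list had 1 call, and without the second *Znf143 f/f* library it had 5.

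The list of 12 primary granule genes held *Mpo*, *Elane*, *Prtn3*, *Ctsg*, *Ms4a3*, *Cst7*, *Prss57*, *Serpinb1a*, *Nkg7*, *Ctsc*, *Calr* and *Srgn*. These genes are read for the earlier stage, and not all of them encode proteins of the granule itself. Of the 12, 5 rose at an adjusted p under 0.05 by limma, none fell and 7 did not pass, against 2.74% of all genes that rose. Of *Mpo*, *Elane*, *Prtn3*, *Ctsg* and *Prss57*, only *Elane* and *Ctsg* passed. 8 of the 12 were higher in all *Znf143 −/−* libraries, against 16.7% of all genes. Their median log2 difference was 0.70 as deposited and 0.59 with median-of-ratios size factors. *Elane*, neutrophil elastase, had 0.448, 0.075 and 0.800 FPKM in *Znf143 f/f* and 2.73, 11.1 and 11.8 FPKM in *Znf143 −/−* libraries (log2 difference 4.03, limma adjusted p = 0.013). *Ctsg*, cathepsin G, had 0.1003, 0 and 0.283 FPKM and 1.65, 3.88 and 4.30 FPKM (log2 difference 3.99, limma adjusted p = 0.0046). Both were higher in the near-alike *Znf143 −/−* libraries than in the first. *Nkg7*, *Cst7* and *Ms4a3* also rose, by log2 differences of 0.96, 1.53 and 1.02 (limma adjusted p = 0.0069, 0.015 and 0.048). *Ms4a3* did not pass once the third *Znf143 −/−* library was divided by its own total (limma adjusted p = 0.061).

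*Mpo*, myeloperoxidase, did not pass, with 0.666, 2.19 and 0.670 FPKM in *Znf143 f/f* and 1.28, 5.13 and 4.82 FPKM in *Znf143 −/−* libraries (limma adjusted p = 0.181). *Prtn3*, proteinase 3, overlapped at 110.2 to 225 and 142 to 259 FPKM (log2 difference 0.14, and 0.03 with size factors, limma adjusted p = 0.842). No primary granule gene passed with the near-alike libraries averaged, and 2 and 1 passed without the second and the third *Znf143 −/−* library. *Elane* and *Ctsg* had limma adjusted p of 0.111 and 0.053 in the averaged comparison.

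**Figure D5:**
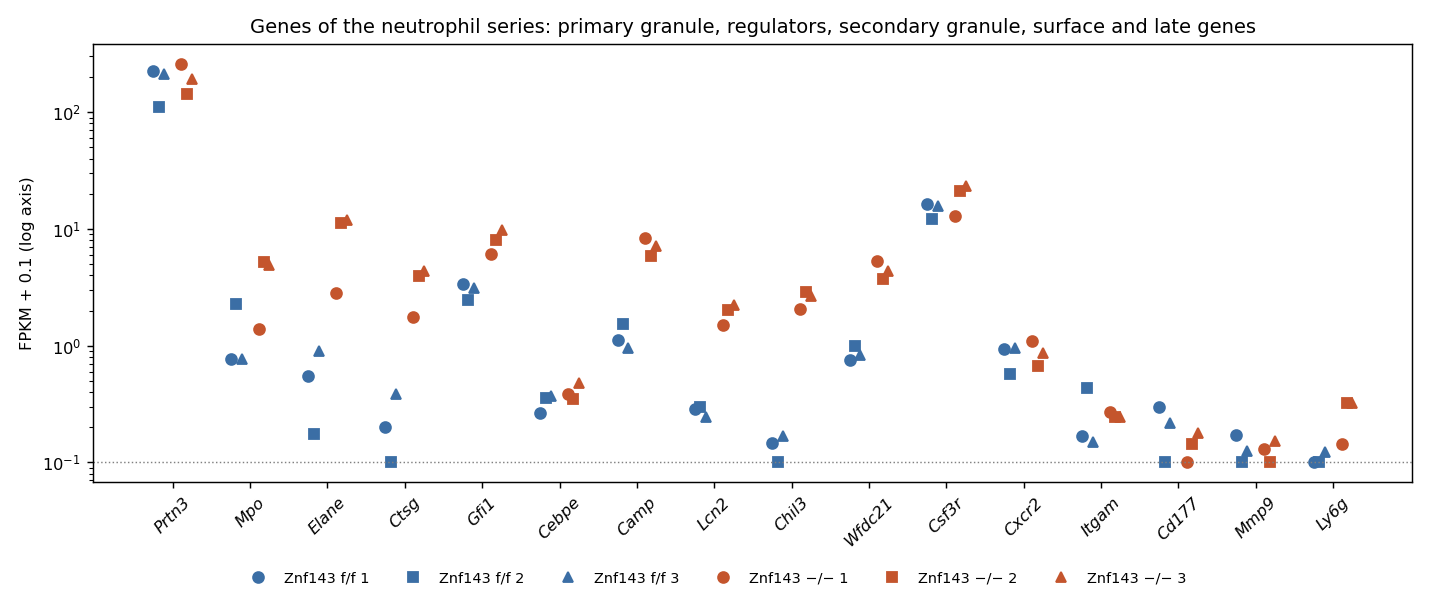
FPKM + 0.1 (log axis) of genes of the neutrophil series in 3 *Znf143 f/f* (blue) and 3 *Znf143 −/−* (orange) libraries, with the replicate number as symbol. The dotted line is an FPKM of 0. *Camp*, *Lcn2*, *Chil3* and *Wfdc21* are separate between genotypes, and *Cebpe*, *Csf3r*, *Cxcr2* and *Mmp9* overlap. *Ly6g* is separate too but stays below 0.3 FPKM.

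Among regulators of granulocytes, 1 passed, against 2.74% of all genes that rose and 1.58% that fell. Of 10 factors, *Gfi1*, a repressor needed for neutrophil development, rose from 2.89 ± 0.467 to 7.88 ± 1.87 FPKM (SD, n = 3 each, log2 difference 1.40, limma adjusted p = 0.011), and no other passed. It did not pass without the second or the third *Znf143 −/−* library, or with the near-alike libraries averaged (limma adjusted p = 0.164). After median-of-ratios rescaling *Cebpa* and *Runx1* also passed, both lower. As deposited, 3 of the 10 (*Gfi1*, *Cebpd* and *Irf8*) were higher and 1, *Cebpa*, was lower in all *Znf143 −/−* libraries, against 16.7% and 8.43% of all genes tested. *Cebpa* had 1.59 ± 0.154 FPKM in *Znf143 f/f* and 1.02 ± 0.162 FPKM in *Znf143 −/−* libraries (SD, n = 3 each). The median log2 difference of the list was 0.12, close to the 0.11 of all genes.

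Of the other S100 genes, 9 were tested and *S100a6* and *S100a4*, which lie near *S100a8* on chromosome 3, rose, against 2.74% of all genes. With *S100a5*, 3 of the 9 were higher in all *Znf143 −/−* libraries and none was lower, against 16.7% and 8.43% of all genes. *S100a6* had 84.9 ± 9.48 and 154.5 ± 21.5 FPKM and *S100a4* 40.6 ± 3.999 and 65.3 ± 4.21 FPKM (SD, n = 3 each, limma adjusted p = 0.020 and 0.032). Neither passed after rescaling by size factors, nor with the near-alike libraries averaged. The abundant *S100a10* and *S100a11* overlapped between genotypes.

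Markers of other cells were read beside these genes, and their part in the results was not tested. Calls in these lists and in those further below stand against 2.74% of all genes that rose and 1.58% that fell. Of the lineage antigens of the sort, 1 of 5 tested rose, *Ly6c1*, from 1.35 ± 0.240 to 6.00 ± 0.668 FPKM (SD, n = 3 each, limma adjusted p = 0.00098, and 0.035 with near-alike libraries averaged). *Ly6c1* shares near-identical sequence with *Ly6c2*, so its value is uncertain. Of 8 monocyte and macrophage markers tested, 1 rose. *Csf1r*, the M-CSF receptor, had 0.0064 ± 0.0070 and 0.225 ± 0.048 FPKM (SD, n = 3 each, limma adjusted p = 0.043), passed in 7 of 15 alternatives and did not pass with near-alike libraries averaged (limma adjusted p = 0.449). Like *Trem3*, *Csf1r* entered the fit through the *Znf143 −/−* libraries alone and could only be called higher. The median log2 difference of the 8 was 0.81, and 7 had a higher mean. Of the 8, 4 were higher and 1, *F13a1*, was lower in all *Znf143 −/−* libraries, against 16.7% and 8.43% of all genes tested. *Ccr2*, a chemokine receptor of monocytes, had 0.079 ± 0.024 and 0.300 ± 0.074 FPKM, and *Fcgr1*, an Fc receptor, 0.339 ± 0.067 and 0.686 ± 0.225 FPKM (SD, n = 3 each), and neither passed (limma adjusted p = 0.103 and 0.205). *Vcan* and *F13a1* were at or under 0.206 FPKM in every library. *Vcan*, which was not tested, was also lower in all *Znf143 −/−* libraries, on 0 to 29 fragments over the libraries. The sum of 13 monocyte and macrophage markers was 16.6 to 19.0 FPKM in *Znf143 f/f* and 20.1 to 25.6 FPKM in *Znf143 −/−* libraries, most of it *Cd68*.

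Genes of other lineages were high in 1 or 2 of the libraries. The 7 eosinophil, basophil and mast cell genes summed to 3.30 to 5.50 FPKM in *Znf143 f/f*, 3.54 FPKM in the first and 23.2 and 25.9 FPKM in the second and the third *Znf143 −/−* libraries, and *Prss34*, a basophil protease, reached 11.4 and 11.2 FPKM in those 2. The erythroid sum was 216 FPKM in the second *Znf143 f/f* library and 59.1 to 77.2 FPKM in the others, and of 9 erythroid genes tested *Rhag* rose and *Hbb-bt*, one of several near-identical globin genes, fell (limma adjusted p = 0.011 and 0.020). Neither passed with near-alike libraries averaged (limma adjusted p = 0.171 and 0.247). B cell markers overlapped in their sum (48.7 to 63.2 and 42.9 to 54.4 FPKM), as did T and NK cell markers (7.40 to 11.9 and 10.2 to 15.4 FPKM), and none of the 7 and 5 tested passed. *Igkc*, an immunoglobulin light chain of B and plasma cells, had 15.1 and 14.3 FPKM in the near-alike *Znf143 f/f* libraries and 0.079 to 0.243 FPKM in the other 4.

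Genes of the gate itself also differed. *Kit* was at 17.6 to 22.0 FPKM in *Znf143 f/f* and 12.6 to 19.3 FPKM in *Znf143 −/−* libraries, and *Slamf1*, which encodes CD150, at 4.68 to 7.56 and 7.33 to 10.6 FPKM, neither of which passed (limma adjusted p = 0.392 and 0.309). *Ly6a*, which encodes Sca-1, rose from 258 ± 35.9 to 607 ± 52.4 FPKM (limma adjusted p = 0.0038), the 1 call among 15 stem cell markers. Of the 15, 11 had a lower mean log2 level in *Znf143 −/−*, with a median log2 difference of -0.16. *Mecom*, a stem cell transcription factor, had 8.89 ± 0.437 and 6.57 ± 0.639 FPKM (SD, n = 3 each, limma adjusted p = 0.182) and fell with size factors or once the third *Znf143 −/−* library was scaled to its own total (limma adjusted p = 0.021 and 0.033). Of 3 tested genes that the gate selects against or that mark later progenitors, *Cd48* rose from 9.75 ± 0.309 to 20.9 ± 2.79 FPKM (limma adjusted p = 0.0069) and *Flt3* from 5.002 ± 0.435 to 16.6 ± 2.16 FPKM (limma adjusted p = 0.0010, SD, n = 3 each). With the near-alike libraries averaged, *Flt3* passed (limma adjusted p = 0.043), and *Cd48* and *Ly6a* did not (limma adjusted p = 0.171 and 0.065).

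The 10 non-member genes most like the mean profile of the 10 over the 6 libraries were *Elp6*, *Ccl5*, *Pan2*, *Cd48*, *Gm23031*, *Hpse*, *Oaf*, *Kdf1*, *Trnp1* and *Gm26306*, with Pearson r of 0.994 to 0.999 among 12550 genes with a mean of at least 1 FPKM. The libraries share their genotype and scale, and 5.61% of these genes had an r of at least 0.9. *Cd48*, which encodes the antigen that the gate excludes, and *Ccl5*, a chemokine of lymphoid and activated cells, had log2 differences of 1.09 and 1.58. *Elp6*, a subunit of the Elongator complex that modifies tRNA, had 5.77, 7.29 and 6.20 FPKM in *Znf143 f/f* and 20.8, 24.5 and 29.0 FPKM in *Znf143 −/−* libraries. It lies between *Camp* and *Ngp* on chromosome 9, 97.6 kb from *Ngp* and 456 kb from *Camp*, and had a log2 difference of 1.92, which is a description, since the gene was picked for its likeness to a profile that is higher in *Znf143 −/−*.

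The genes around *Camp*, *Ngp* and *Ltf* were looked at after *Elp6* had been seen, and calls are to be read against the 2.74% of all genes that rose and the 1.58% that fell. Of 32 other genes tested from 500 kb before *Camp* to 500 kb after *Ltf*, *Elp6* was the 1 called, and their median log2 difference was 0.03. Within 500 kb of *S100a8* and *S100a9*, 25 other genes were tested, of which *S100a4* and *S100a6* rose and *Snapin* fell, from 21.8 ± 2.18 to 7.31 ± 2.04 FPKM (SD, n = 3 each, limma adjusted p = 0.0059). Within 500 kb of *Lcn2*, 38 were tested and *Plpp7* and *Tor2a* fell. Within 500 kb of *Chil3*, 22 were tested, *I830077J02Rik* rose and *Gm43331* fell (limma adjusted p = 0.036 and 0.049). None of these genes near *S100a8*, *Lcn2* and *Chil3* passed with near-alike libraries averaged, where limma adjusted p were 0.079 for *Snapin*, 0.065 for *Plpp7*, 0.133 for *Tor2a*, 0.322 for *I830077J02Rik* and 0.464 for *Gm43331*. No gene passed among 14 tested near *Lyz2*, 6 near *Mmp8* and 1 near *Retnlg*.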

How the data were processed

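RNA-seq libraries of HSLAM cells from 3 *Znf143 f/f* and 3 *Znf143 −/−* mice were analysed, and ChIP-seq and HiC samples were not used here. RNA was amplified with a SMART-Seq v4 low-input kit, which does not mark strand, and sequenced as 76 base paired-end reads. Trimming was done by the authors with TrimGalore, alignment (GRCm38) with STAR and counting with FeatureCounts, and the authors deposited FPKM per gene and library. The authors' columns of mean count, log2 fold change, its standard error, test statistic and p-values were not used.

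Fragments were recovered from FPKM and gene length and were whole (within 0.05) in 99.99% of 138696 values. Genes averaging 0.1 FPKM or more over the libraries were compared on log2(FPKM + 0.1), which understates changes of low genes, with limma 3.58.1 in R 4.3.3 (eBayes with trend, no block, Benjamini-Hochberg). Voom on the recovered fragments called 1401 genes, against 833 with FPKM. The fit was also run on simulated fragments with known folds, in libraries without near-alike pairs and each divided by its own total. Intervals on fragments cover counting error only.

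The genes and all gene lists were chosen with earlier results of these data known. Named are the 10 genes, *Zfp143*, genes called in each list (at most 8), defining markers, close paralogs and the 10 genes of highest Pearson r. Genes named near the 10 on the chromosome, and list members that did not pass, were chosen after their values were seen. Positions are from GENCODE M21. Nothing in the labels says how the libraries of a genotype relate to litters, sorts or preparations, and replicate numbers were not used as pairs.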

Additional observations from a re-analysis of the deposited data

How the results depend on the processing

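Over all genes tested, 833 passed at an adjusted p under 0.05, 63.5% of them higher, and 50.04% of 1161 were higher with median-of-ratios size factors, which moved the median of all genes from 0.11 to 0.01. Voom called 1401 genes (46.9% higher), and leaving out each library gave 189 to 1518 calls. The lowest was without the third *Znf143 −/−* library (189), then without the second *Znf143 −/−* (312), the third *Znf143 f/f* (393) and the first *Znf143 f/f* library (528), and more were called without the second *Znf143 f/f* (1441) or the first *Znf143 −/−* library (1518). Averaging the near-alike libraries, chosen after the data were seen, gave 84 calls, and 44 with size factors.

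The median log2 difference of the fitted genes was 1.51 and was 1.25 with a pseudocount of 1, 1.28 with no filter, 1.68 with a mean FPKM of at least 1, 1.40 with size factors, 1.43 with *Znf143 −/−* library 3 scaled to its own total, 1.38 with voom, 1.40 with near-alike libraries averaged, 1.31 with both, and 1.35 to 1.599 with each library left out. Genes with a higher *Znf143 −/−* mean numbered 7 to 9 of 10 over the 18 alternatives, and 7 or 8 had genotypes that did not overlap. Leaving out or averaging libraries makes separate ranges easier for any gene, and the share of all genes was not taken there. The genes were picked on this contrast, so nothing is read from these counts. *Camp*, *Ngp*, *Lcn2*, *S100a8*, *S100a9*, *Chil3* and *Lyz2* kept their direction in all 18. *Ltf* kept it in 12 of 17 and *Retnlg* in 13 of 18. The log2 difference of *Chil3* ran from 1.72 (pseudocount 1) to 6.34 (voom), and that of *Lcn2* from 1.25 to 3.28.

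Calls among 30 other late neutrophil genes (3) became 5 with a pseudocount of 1, 1 with near-alike libraries averaged, 0 with these averages and size factors, and 1 to 5 with each library left out. Calls among 12 primary granule genes (5) became 0 with near-alike libraries averaged, with or without size factors, and 1 to 6 with each library left out.

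Same-numbered libraries did not deviate together (correlations of -0.096, -0.091 and 0.031). With 3 libraries a genotype, of which 2 are near-alike, this check cannot show whether the numbers mark littermate pairs. With the replicate block, 864 genes passed, 3 of the late and 5 of the primary granule genes among them. With the replicate block and size factors, 186 passed, 1 late and 0 primary granule genes, with a median log2 difference of the fitted genes of 1.40.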
